A study of Homo sapiens with 9 samples.

Results

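The regulators of entry into and exit from mitosis followed here in RNA sequencing of MDA-MB-231 cells were CDK1, CCNA2, CCNB1, CCNB2, CDC25B, CDC25C, PLK1, AURKA, CDC20 and PTTG1. They were chosen by gene name, with earlier results of these data known, and make up 10 of the 27615 genes listed in at least 1 library. MDA-MB-231 is an established human breast cancer line that lacks hormone receptors, and the sequenced cells were treated with vehicle (DMSO), with rimonabant or with TXX-1-10, with 3 libraries per treatment. Rimonabant blocks the cannabinoid receptor CB1, and TXX-1-10 was derived from it. For the sequenced cells neither dose nor length of treatment is given in the sources used here, nor whether the 3 libraries of a treatment came from separate cultures, so the p-values below measure the spread between these libraries only. All values come from a single cell line.

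Entry into mitosis is driven by CDK1, a kinase that is active only when bound to a cyclin, first cyclin A and then cyclin B. The kinase is held back by inhibitory phosphates that CDC25 phosphatases remove, while PLK1 and AURKA promote that switch and build the spindle. Exit begins when CDC20 activates the anaphase-promoting complex (APC/C), a ubiquitin ligase that marks cyclin B and securin, the product of PTTG1, for destruction. The RNAs of these genes are known to be low in G1 and to accumulate towards G2 and mitosis. In RNA from a whole culture, fewer cells in those phases and less RNA per cell cannot be told apart.

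The library total by which FPKM was divided, recovered here from counts and FPKM, ranged from 17078370 to 17245379 in the vehicle libraries, 17477838 to 18813662 in the rimonabant libraries and 18394759 to 19277808 in the TXX-1-10 libraries. What this total counts is not given in the sources used here, and in vehicle replicates 1 and 3 it was below the sum of the listed counts (17492638 and 17383157). The gene lists as used here end at different points, so that 4237 genes are listed in all 9 libraries, and a gene missing from a list was treated as missing and not as 0. Rimonabant replicate 1 and TXX-1-10 replicate 3 stood apart from the other libraries of their groups by a trend with gene length (Spearman rho across genes -0.70 in both), and the counts of members called are therefore also given without them. VIM, CD44, EGFR, AXL, CAV1 and KRT18, all typical of this line, were listed in all 9 libraries at 20.8 FPKM or more. The lowest value was that of CAV1 with TXX-1-10, where its mean was 15.4% of the vehicle mean. ESR1 and PGR, the hormone receptor genes, were at most 0.0459 FPKM in the 4 libraries that listed them, while ERBB2 reached 9.52 FPKM. Of 3 luminal genes, GATA3 and FOXA1 were at most 1.45 and 0.860 FPKM in the 6 libraries that listed them. KRT19 went the other way and was listed in all 9 libraries, at 15.9 to 30.6 FPKM.

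Genes of this phase often carry in their promoters a cell cycle genes homology region (CHR), which MuvB complexes bind, downstream of a CCAAT box, which NF-Y binds. The RefSeq promoter windows of GRCh38.p14, running from 250 bases before to 50 bases after a transcript start, were therefore searched on both strands, on which TTCGAA and TTTAAA read the same. Of the 10 genes, 9 (all but AURKA) matched 17 windows, some of which overlap where a gene has several starts. The stretches below are shown because they hold, for each gene, the CHR match that lies closest before a transcript start. Each is 30 bases of the gene's own strand, with the CHR match in capitals.
CDC20: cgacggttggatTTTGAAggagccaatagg
PLK1: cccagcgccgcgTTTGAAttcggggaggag
CCNB2: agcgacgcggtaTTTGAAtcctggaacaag
CDK1: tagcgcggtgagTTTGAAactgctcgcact
CDC25C: gctggcggaaggTTTGAAtggtcaacgcct
CDC25B: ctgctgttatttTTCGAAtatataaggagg
CCNB1: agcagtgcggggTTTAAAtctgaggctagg
PTTG1: cgcgagttgtggTTTAAAccaggagtgcgc
CCNA2: agtcgcgggataCTTGAActgcaagaacag

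These stretches lie at chr1:43358904-43358933 (plus strand, CDC20), chr16:23678848-23678877 (plus strand, PLK1), chr15:59105105-59105134 (plus strand, CCNB2), chr10:60778453-60778482 (plus strand, CDK1), chr5:138331817-138331846 (minus strand, CDC25C), chr20:3796260-3796289 (plus strand, CDC25B), chr5:69167108-69167137 (plus strand, CCNB1), chr5:160421814-160421843 (plus strand, PTTG1) and chr4:121823894-121823923 (minus strand, CCNA2). The first capital lies between positions -65 (CDC20) and -13 (CDK1), counted from 1 at the transcript start. TTTGAA or TTCGAA occurred in windows of 6 of the 9 genes and in 16.4% of all 35116 promoter windows. The forms TTTAAA and CTTGAA were added after the promoters had been seen, and with them all 9 genes held a CHR match, against 32.2% of all windows. A CCAAT box was present in 13 of the 17 windows and in at least 1 window of all 9 genes, against 34.6% of all windows. Genes with several windows had more chances to match, and a match in these letters is a description of the sequence, not a measurement of binding.

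**Figure D1:**
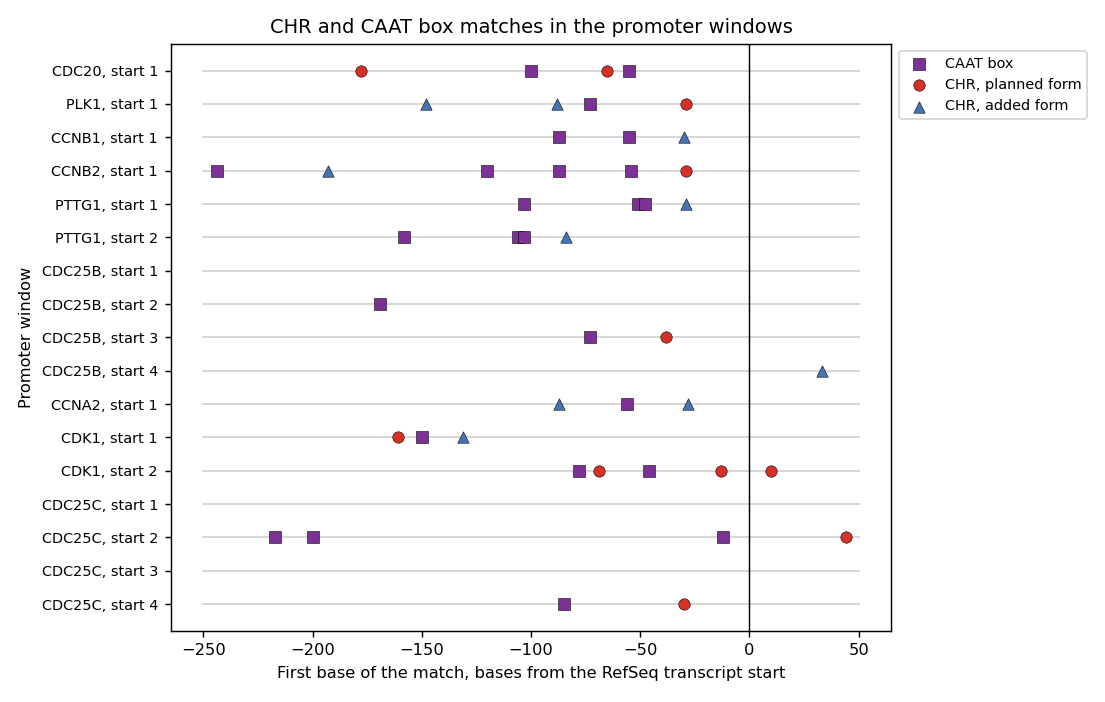
Position of CHR and CAAT box matches in the 17 promoter windows of 9 genes, in bases from the RefSeq transcript start; grey lines span each window, circles are the planned CHR forms, triangles the forms added later and squares the CAAT box. The start 1 windows of CDC20, PLK1, CCNB1, CCNB2, PTTG1 and CCNA2 each have a CHR match between -65 and -28, and 3 of the 17 windows hold no match.

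Compared with the vehicle, TXX-1-10 lowered all 10 genes (edgeR quasi-likelihood test, Benjamini-Hochberg adjusted p under 0.05), by between 1.24-fold for CDC25B and 5.05-fold for CDC20, where 43.8% of the 4236 genes listed in every library and 40.6% of the 9369 listed in 8 libraries passed this test as lower. A gene is called here when that adjusted p is under 0.05 and the log2 fold change is at least 1 in size. By that rule 9 of the 10 genes were called lower with TXX-1-10, 8 of them among the 9 listed in every library, where 7.60% of 4236 genes were called lower. The ninth, CDC25C, was fitted on 8 libraries, where 7.39% of 9369 genes were called lower. Rimonabant lowered 8 of the 10 genes, where 25.2% and 22.8% of the genes of these fits passed as lower. Of the 9 genes only PLK1 and CDC20 were called with rimonabant, against 0.614% of 4236 genes, and CDC25C was not, against 0.758% of 9369 genes. Without the 2 libraries with a length trend the numbers called among the 9 genes were again 8 and 2. The median log2 fold change of the 9 genes was -1.90 with TXX-1-10 and -0.64 with rimonabant, where that of all genes was -0.09 and -0.02. Both comparisons use the same vehicle libraries. Because the 10 genes were chosen with earlier results of these data known, the shares over all genes are not an unbiased contrast.

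CDK1 (ENSG00000170312, chr10:60778331-60794852, plus strand), the catalytic subunit, was at 57.7, 53.2 and 50.1 FPKM in vehicle replicates 1 to 3, at 55.2, 50.2 and 49.5 FPKM with rimonabant and at 13.7, 14.2 and 15.2 FPKM with TXX-1-10. The rimonabant libraries overlapped those of the vehicle, and the TXX-1-10 libraries lay far below both. The fall with TXX-1-10 was 3.73-fold (log2 fold change -1.90 ± 0.07 SE, edgeR adjusted p = 5.51e-09). With rimonabant the log2 fold change was -0.06, with a 95% interval from -0.21 to 0.09 (edgeR adjusted p = 0.516).

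CCNA2 (ENSG00000145386, chr4:121816444-121823933, minus strand) encodes cyclin A2, the cyclin that binds CDK1 before cyclin B does. Its level was 52.2, 50.8 and 50.4 FPKM in the vehicle libraries, 42.1, 38.3 and 39.5 FPKM with rimonabant and 9.57, 11.3 and 10.5 FPKM with TXX-1-10. The 3 groups did not overlap, and the step from vehicle to rimonabant was small beside the step to TXX-1-10. Rimonabant changed it by -0.36 ± 0.06 SE on the log2 scale (edgeR adjusted p = 0.00109) and TXX-1-10 by -2.29 ± 0.07 SE (edgeR adjusted p = 1.11e-09).

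CCNB1 (ENSG00000134057, chr5:69167010-69178245, plus strand) encodes cyclin B1, the main mitotic cyclin and a substrate of the APC/C. It was at 127.5, 126.1 and 126.3 FPKM with vehicle, at 72.2, 63.6 and 63.2 FPKM with rimonabant and at 29.9, 30.1 and 35.4 FPKM with TXX-1-10. The groups were well separated, with the rimonabant libraries at 52.4% of the vehicle mean and the TXX-1-10 libraries at 25.1%. The log2 fold change was -1.99 ± 0.08 SE with TXX-1-10 (edgeR adjusted p = 6.72e-09), and that of -0.93 ± 0.07 SE with rimonabant (edgeR adjusted p = 9.62e-06) fell just short of the fold needed for a call.

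CCNB2 (ENSG00000157456, chr15:59105078-59125045, plus strand), the gene of the related cyclin B2, was at 36.0, 34.3 and 34.7 FPKM with vehicle, 22.8, 22.1 and 22.7 FPKM with rimonabant and 9.69, 10.3 and 11.4 FPKM with TXX-1-10. It followed CCNB1 in order, with no overlap between groups and a smaller change under each compound. Its log2 fold change was -0.64 ± 0.06 SE with rimonabant (edgeR adjusted p = 2.74e-05) and -1.74 ± 0.06 SE with TXX-1-10 (edgeR adjusted p = 4.51e-09).

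Of the phosphatases that activate CDK1, CDC25C was called lower with TXX-1-10 and CDC25B was not. CDC25C (ENSG00000158402, chr5:138285265-138338355, minus strand) was the lowest of the 10 genes, at 6.93, 7.11 and 6.92 FPKM with vehicle, 6.40 and 6.81 FPKM in rimonabant replicates 2 and 3, and 2.63, 2.20 and 2.15 FPKM with TXX-1-10, and it was not listed in rimonabant replicate 1. Its counts ranged from 132 to 421 reads, the fewest among the 10 genes. The log2 fold change was -1.58 ± 0.09 SE with TXX-1-10 (edgeR adjusted p = 1.25e-08). With rimonabant it was -0.08, with a 95% interval from -0.28 to 0.12 (edgeR adjusted p = 0.495).

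CDC25B (ENSG00000101224, chr20:3786772-3806121, plus strand), the phosphatase that acts on CDK1 early in G2, was at 30.9, 32.8 and 32.3 FPKM with vehicle, 26.5, 22.8 and 23.5 FPKM with rimonabant and 25.5, 26.4 and 25.2 FPKM with TXX-1-10. Both treated groups lay below the vehicle and overlapped each other, a pattern seen in none of the other 9 genes. The log2 fold change was -0.40 ± 0.06 SE with rimonabant (edgeR adjusted p = 0.000463) and -0.32 ± 0.06 SE with TXX-1-10 (edgeR adjusted p = 0.000765), neither of which met the fold needed for a call.

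PLK1 (ENSG00000166851, chr16:23677656-23690367, plus strand), a kinase that activates CDC25C and acts at centrosomes and kinetochores, was at 26.0, 25.2 and 27.4 FPKM with vehicle, 12.1, 10.8 and 10.9 FPKM with rimonabant and 5.32, 5.39 and 5.23 FPKM with TXX-1-10. The 3 levels were separated by wide gaps and the TXX-1-10 libraries were almost equal. The fall was 2.32-fold with rimonabant (log2 fold change -1.22 ± 0.06 SE, edgeR adjusted p = 4.15e-07) and 4.94-fold with TXX-1-10 (log2 fold change -2.30 ± 0.06 SE, edgeR adjusted p = 6.62e-10).

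AURKA (ENSG00000087586, chr20:56369389-56392337, minus strand), the centrosomal kinase that activates PLK1, was at 82.5, 85.0 and 77.7 FPKM with vehicle, 50.9, 46.1 and 47.6 FPKM with rimonabant and 23.5, 24.0 and 25.2 FPKM with TXX-1-10. Again the groups did not overlap and rimonabant lay between. On the log2 scale it changed by -0.76 ± 0.06 SE with rimonabant (edgeR adjusted p = 6.13e-06) and -1.75 ± 0.06 SE with TXX-1-10 (edgeR adjusted p = 2.14e-09).

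CDC20 (ENSG00000117399, chr1:43358955-43363203, plus strand), the activator of the APC/C, was at 125.1, 125.3 and 133.7 FPKM with vehicle, 57.2, 50.8 and 53.3 FPKM with rimonabant and 24.5, 24.0 and 27.6 FPKM with TXX-1-10. Its fall was the largest of the 10 genes with rimonabant. With TXX-1-10 it lay close to those of PLK1 and CCNA2, and another of these 3 genes fell most with the gene length correction (PLK1) and without TXX-1-10 replicate 2 (CCNA2). The fall was 2.38-fold with rimonabant (log2 fold change -1.25 ± 0.07 SE, edgeR adjusted p = 7.94e-07), the 14th lowest of 4236 genes, and 5.05-fold with TXX-1-10 (log2 fold change -2.34 ± 0.07 SE, edgeR adjusted p = 1.15e-09).

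PTTG1 (ENSG00000164611, chr5:160421822-160428744, plus strand) encodes securin, which holds separase inactive until anaphase. It was at 72.2, 69.5 and 64.7 FPKM with vehicle, 55.6, 44.3 and 49.5 FPKM with rimonabant and 26.4, 24.5 and 30.9 FPKM with TXX-1-10. The groups did not overlap, but its standard errors against vehicle were the largest of the 10 genes, at 0.10 in both comparisons. The log2 fold change was -0.47 with rimonabant (edgeR adjusted p = 0.00326) and -1.33 with TXX-1-10 (edgeR adjusted p = 8.98e-07).

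All 10 genes had lower FPKM in every TXX-1-10 library than in any vehicle library, an outcome found in 46.3% of 4236 genes and in 41.2% of the 9369 genes of the fit on 8 libraries. For rimonabant this held for 9 genes, all but CDK1, against 31.5% and 35.8%. For CDC25C, which is among them, it rests on 2 rimonabant libraries, and the gene did not pass the test (edgeR adjusted p = 0.495). CDC20, PTTG1 and AURKA have near-identical copies elsewhere in the genome. PTTG2 was listed at 0 FPKM in 2 libraries and CDC20P1 and AURKAP1 at no more than 0.224 FPKM in the few libraries that listed them. The names PTTG3P, AURKAPS1, CCNB1P1, CCNB2P1 and PLK1P1 were found in no list, which is missing and not 0. Low values of copies do not show that the counts of the members were unaffected by shared reads. The strandedness of the counting is not given in the sources used here, so reads of overlapping antisense genes cannot be told apart.

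**Figure D2:**
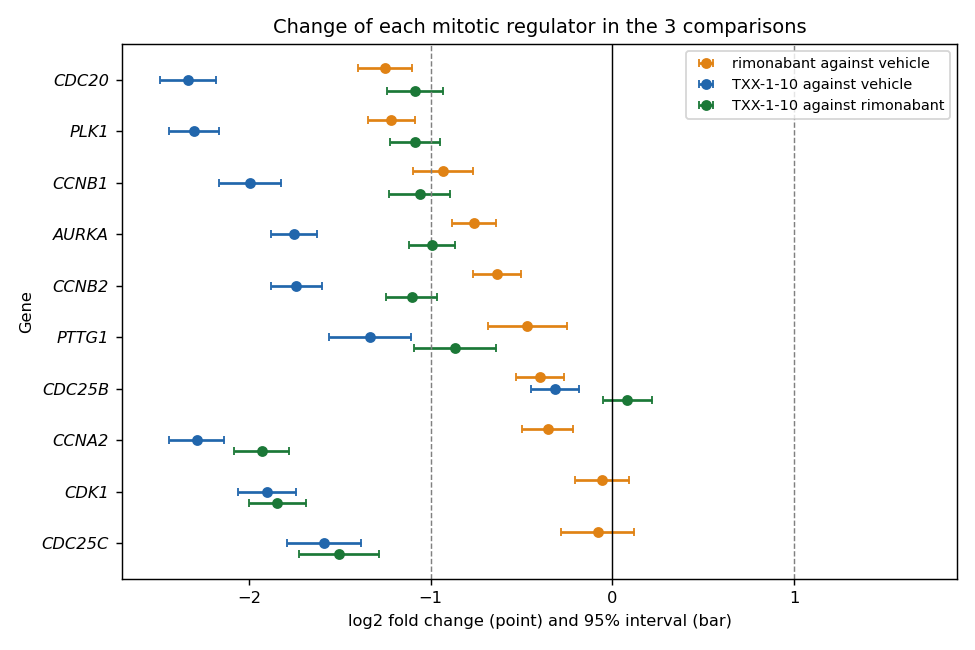
log2 fold change of each gene in the 3 comparisons (points) with its 95% interval (bars), with dashed lines at -1 and 1. The TXX-1-10 against vehicle values lie left of -1 for all genes but CDC25B, and the rimonabant against vehicle values lie left of -1 for CDC20 and PLK1.

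The compounds were also compared directly, as 1 pair, at doses that are not given. TXX-1-10 left 9 of the 10 genes lower than rimonabant did (edgeR adjusted p under 0.05), where 39.4% of 4236 and 33.9% of 9369 genes passed as lower, and CDK1, CCNA2, CDC25C, CCNB1, CCNB2, PLK1 and CDC20 were called. Among the 9 genes listed in every library that is 6 calls, against 4.34% of 4236 genes called lower (4.31% of 9369 in the fit that holds CDC25C), and it is also 6 without the 2 libraries with a length trend. The differences were largest for CCNA2 (log2 fold change -1.93 ± 0.07 SE, edgeR adjusted p = 9.25e-09), CDK1 (-1.84 ± 0.07 SE, edgeR adjusted p = 1.70e-08) and CDC25C (-1.50 ± 0.10 SE, edgeR adjusted p = 1.16e-07). Those of CCNB2, PLK1, CDC20 and CCNB1 lay from -1.10 to -1.06, and AURKA at -0.99 missed the fold needed for a call. Many of these values lie near that fold, and the number of calls differed with the processing. Among the 9 genes it was 3 with TMM or DESeq2 size factors and 2 after a correction for gene length, for causes that were not tested.

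For CDC25B the difference between the compounds depended on the processing. It missed the test over all 9 libraries, with a log2 fold change of 0.08 and a 95% interval from -0.05 to 0.22 (edgeR adjusted p = 0.249). CDC25B passed as higher with TXX-1-10 without rimonabant replicate 1 (0.15, edgeR adjusted p = 0.0255), without both libraries with a length trend (0.16, edgeR adjusted p = 0.00494) and with TMM (0.17, edgeR adjusted p = 0.0215), DESeq2 (0.17, adjusted p = 0.00652) or the gene length correction (0.19, edgeR adjusted p = 0.00729). PTTG1 had a log2 fold change of -0.87 against rimonabant (edgeR adjusted p = 3.83e-05).

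Whether these genes changed by unequal amounts was read from ratios of FPKM within each library, which do not depend on the library total. Of the members listed in every library, PLK1, CDC20 and CCNB1, the numerators, fell most with rimonabant. The denominators, CCNA2 and CDK1, changed least with it. Lower ratios with rimonabant therefore restate those changes and are not a separate result. The ratio of PLK1 to CDK1 was 0.451, 0.474 and 0.548 in the vehicle libraries, 0.219, 0.216 and 0.221 with rimonabant and 0.387, 0.380 and 0.343 with TXX-1-10. PLK1 was thus lowest relative to CDK1 in the rimonabant libraries, with no overlap between groups. The mean log2 ratio differed from that of the vehicle by -1.16 with rimonabant and by -0.41 with TXX-1-10.

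The ratio of CDC20 to CCNA2 was 2.40, 2.47 and 2.65 with vehicle, 1.36, 1.33 and 1.35 with rimonabant and 2.56, 2.11 and 2.62 with TXX-1-10. Here only the rimonabant libraries stood apart, by -0.90 on the log2 scale from the vehicle, whereas the TXX-1-10 libraries overlapped the vehicle libraries, with a difference of -0.05. PLK1 over CCNA2 behaved likewise, with differences of -0.86 and -0.01. CCNB1 over CCNA2 differed from the vehicle by -0.58 on the log2 scale with rimonabant and by 0.29 with TXX-1-10. How often the groups separate for ratios of other gene pairs was not computed, and the 18 comparisons of 6 ratios share the same genes and libraries. Of these comparisons, 15 had groups that did not overlap. Each of these had an exact two-sided permutation p = 0.1, the smallest that 3 against 3 libraries allow, and an adjusted p of 0.12.

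The order of the levels also differed between treatments. In vehicle libraries CDC20 (128.0 ± 4.9 FPKM, SD, n = 3) and CCNB1 (126.6 ± 0.77 FPKM) were the most abundant and overlapped, followed by AURKA (81.7 FPKM), PTTG1 (68.8 FPKM), CDK1 (53.7 FPKM) and CCNA2 (51.1 FPKM), of which the last 2 overlapped. With rimonabant CCNB1 (66.3 FPKM) came first, and CDC20, CDK1, PTTG1 and AURKA followed between 53.8 and 48.2 FPKM, each overlapping its neighbour. With TXX-1-10 CCNB1, PTTG1, CDC25B, CDC20 and AURKA lay between 31.8 and 24.3 FPKM, each overlapping its neighbour. CDC25B thus had rank 8 of 10 with vehicle and rank 3 with TXX-1-10.

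Over the 9 libraries AURKA and CCNB1 were the members closest to the mean profile of the other members listed in every library (Pearson r = 0.998 for both), and CDK1 (r = 0.880) and CDC25B (r = 0.616) the least close. Of 4227 other genes, the profiles most like the members' mean were those of PKM (r = 0.999), SFPQ (r = 0.998), AJUBA (r = 0.998), NCL (r = 0.998) and SERBP1 (r = 0.997). PKM, the gene of pyruvate kinase, was at 231.5 ± 3.2 FPKM with vehicle, 176.3 ± 9.2 FPKM with rimonabant and 121.1 ± 3.5 FPKM with TXX-1-10. These correlations describe 9 libraries in 3 groups, in which the libraries of a group share their treatment and all genes of a library share its total. Each profile was standardised, so r does not reflect the size of a change. With TXX-1-10 PKM fell less than every member but CDC25B.

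Other genes of the pathway were read from 7 lists with 65 genes that are no members, of which 62 could be tested. With TXX-1-10, 44 of the 62 fell and 7 rose at any fold, and 16 were called lower and 1 higher. Depending on the fit, which held genes of 9, 8 or 7 libraries, 43.8%, 40.6% or 36.1% of all genes fell with TXX-1-10, 30.5%, 34.7% or 32.3% rose, 7.60%, 7.39% or 7.68% were called lower and 4.20%, 5.28% or 6.31% called higher. These shares also apply to the counts per list below, and a list with 1 gene called lower does not stand out from them. Because the lists were chosen with earlier results of these data known, the shares are not an unbiased contrast for them. With rimonabant 19 of the 62 fell and 9 rose, and 1 was called lower. Over all genes 25.2%, 22.8% or 16.9% fell with rimonabant, 23.7%, 23.7% or 18.1% rose, and 0.614%, 0.758% or 1.04% were called lower. Directly compared, 15 of the 62 were called lower with TXX-1-10 than with rimonabant, 9 of them among the 38 listed in every library, where 4.34% of genes were called lower. MYBL2 (-1.83), MASTL (-1.47) and ESPL1 (-1.37 on the log2 scale) were among these. The median log2 fold change against vehicle over the 62 genes was -0.53 with TXX-1-10 and -0.08 with rimonabant.

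Among the partners, kinases and phosphatases of CDK1, 8 of 10 tested genes fell with TXX-1-10 and 1 rose. CDC25A, the remaining CDC25 phosphatase, went from 13.7 ± 0.41 FPKM with vehicle and 13.1 ± 0.69 FPKM with rimonabant (n = 2) to 3.11 ± 0.28 FPKM with TXX-1-10 (log2 fold change -2.14 ± 0.08 SE, edgeR adjusted p = 1.68e-10). CDC25A was not listed in rimonabant replicate 1 and was fitted on 8 libraries, as were PKMYT1, WEE1, BORA, PPP2R1B, CDC23, FBXO5, UBE2D1 and SGO1. The CDK1-inhibiting kinases fell as well. The log2 fold change was -1.92 for PKMYT1 (edgeR adjusted p = 5.22e-10) and -0.93 for WEE1 (edgeR adjusted p = 1.06e-07), the latter short of a call. CCNA1, the germline cyclin A, was the 1 gene of the lists called with rimonabant (-1.02 ± 0.15 SE, edgeR adjusted p = 0.000434, 7 libraries), and it was named after its values were seen. It was not called without rimonabant replicate 2, without vehicle replicate 3, with the replicate block or with the gene length correction (0 genes called in each).

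All 4 genes of the list of Aurora A and PLK1 activators and Aurora B were called lower with TXX-1-10. GTSE1 (-1.93 ± 0.06 SE, edgeR adjusted p = 1.10e-09) and BORA, the cofactor through which AURKA activates PLK1 (-1.62 ± 0.12 SE, edgeR adjusted p = 1.39e-07), changed most. AURKB, the kinase of the chromosomal passenger complex, was named after its values were seen. It rose with rimonabant (0.18 ± 0.06 SE, edgeR adjusted p = 0.0225) and fell with TXX-1-10 (-1.07 ± 0.06 SE, edgeR adjusted p = 6.60e-08).

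Of the transcription factors of G2/M genes, 7 of 9 tested fell with TXX-1-10 and only MYBL2, the B-MYB gene, was called. MYBL2 was at 57.9 ± 1.4 FPKM with vehicle, 54.6 ± 3.4 FPKM with rimonabant and 15.3 ± 0.61 FPKM with TXX-1-10 (-1.92 ± 0.06 SE, edgeR adjusted p = 1.31e-09). FOXM1 changed by -0.97 on the log2 scale with TXX-1-10 (edgeR adjusted p = 3.89e-08), short of a call, and by -0.23 with rimonabant (edgeR adjusted p = 0.00287).

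In the Greatwall pathway, which restrains the phosphatase that opposes CDK1, 6 of 9 genes fell with TXX-1-10. MASTL, the Greatwall kinase, was the 1 called (-1.41 ± 0.05 SE, edgeR adjusted p = 4.34e-09), and with rimonabant it was at 41.1 ± 1.9 FPKM against 39.5 ± 1.1 FPKM with vehicle. PPP2R1B, a scaffold subunit of the phosphatase, had the second largest change (-0.72 ± 0.08 SE, edgeR adjusted p = 3.16e-06).

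Of 13 subunits of the APC/C core tested, 7 fell and 2 rose with TXX-1-10, and only ANAPC15 was called (-1.28 ± 0.17 SE, edgeR adjusted p = 3.38e-05, 7 libraries), followed by CDC23 (-0.68 ± 0.05 SE, edgeR adjusted p = 2.09e-07). Over all genes 7.60%, 7.39% or 7.68% were called lower, depending on the fit, and the 1 call among 13 subunits is near that share. FBXO5, the APC/C inhibitor EMI1, fell by 1.86 on the log2 scale (edgeR adjusted p = 5.39e-10). Of the E2 enzymes that work with the APC/C, UBE2S fell to a log2 fold change of -1.68 (edgeR adjusted p = 7.74e-07) and UBE2C to one of -1.59 (edgeR adjusted p = 5.99e-08). FZR1, the coactivator that replaces CDC20 in late mitosis, fell by 0.21 (edgeR adjusted p = 0.00719), and its log2 fold change with rimonabant was -0.12 (edgeR adjusted p = 0.115). UBE2D1, a less specific E2 enzyme named after its values were seen, rose from 8.23 ± 0.12 FPKM with vehicle to 12.6 ± 0.65 FPKM with rimonabant (n = 2) and 18.1 ± 0.85 FPKM with TXX-1-10. Its log2 fold change was 0.61 with rimonabant (edgeR adjusted p = 3.17e-05) and 1.14 with TXX-1-10 (edgeR adjusted p = 6.29e-09), the 1 gene of the lists called higher.

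In the list of separase and cohesin, 8 of 12 genes fell with TXX-1-10 and 3 were called. ESPL1, the separase that securin holds inactive, fell by 1.74 on the log2 scale (edgeR adjusted p = 1.79e-08), and SGO1, a protector of centromeric cohesin, fell by 1.55 (edgeR adjusted p = 3.69e-08). The third was CDCA5, the gene of the cohesin protector sororin, which was named after its values were seen. It fell by 1.18 with TXX-1-10 (edgeR adjusted p = 6.68e-07) and rose by 0.41 with rimonabant (edgeR adjusted p = 0.00246). With rimonabant ESPL1 fell by 0.38 (edgeR adjusted p = 0.00209), and SGO1 had a log2 fold change of -0.05 (edgeR adjusted p = 0.708).

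**Figure D3:**
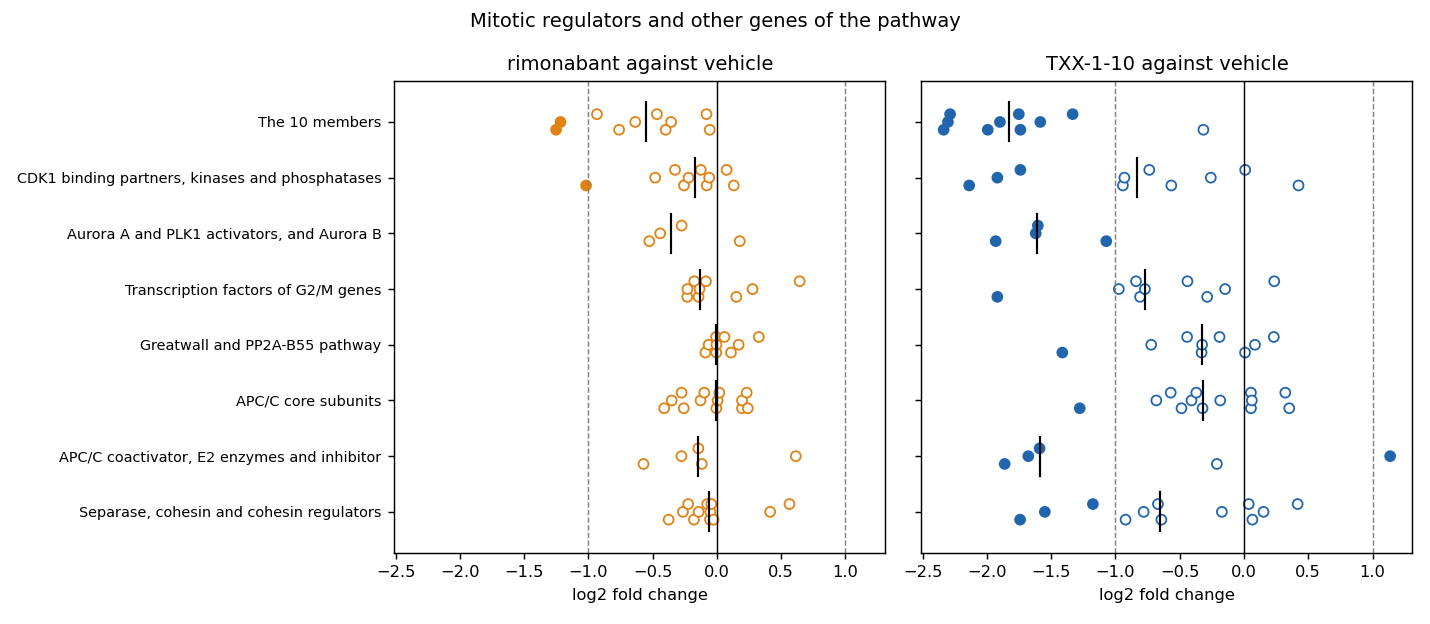
log2 fold change against vehicle of the 10 members and of the 62 tested genes of 7 pathway lists, 1 point per gene; filled points are called, black lines are medians and dashed lines mark -1 and 1. With TXX-1-10 the members have a median below -1. So do the list of Aurora A and PLK1 activators and Aurora B and the list of APC/C coactivator, E2 enzymes and inhibitor. With rimonabant all list medians lie above -1.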

How the data were processed

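Total RNA of MDA-MB-231 cells was selected with oligo(dT), made into NEBNext Ultra libraries and sequenced by Illumina. The submitters' processing notes name HISAT2 2.0.5 and featureCounts 1.5.0-p3, and gene coordinates match GENCODE release 29 (GRCh38) for 27612 of 27615 genes. For each gene the authors deposited a whole-number count without normalization. The authors also deposited an FPKM value, the count divided by gene length and a library total, and that total, recovered from both, served as library size, although what it counts is not given in the sources used here. Counts were tested with edgeR 4.0.16 (glmQLFit, glmQLFTest) in R 4.3.3 over all 9 libraries, for the 4236 genes that all of them list and whose mean FPKM reaches 1. Genes missing from rimonabant replicate 1 were fitted on the other 8 libraries (9369 genes), and those missing from 1 further library on 7 (11200 genes). Adjustment was by Benjamini-Hochberg over all genes of a fit, and the thresholds (log2 fold change of 1, adjusted p of 0.05) follow the adjusted rule in the study's figure legend, while its methods name an unadjusted p. The fit was tested on simulated counts for TXX-1-10 against vehicle in which 200 of 4236 genes had a 3-fold change, and it recovered 200 with 0 false calls. Those counts had the same dispersion for every gene, no gene length trend and a change above the fold needed for a call. The simulation therefore checks only that the fit runs as meant and does not measure its error rate in these libraries.

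Alternatives were TMM, DESeq2 1.42.0, limma 3.58.1 on log2(FPKM + 1) and log2(FPKM + 0.1), other filters, a replicate block, a lowess correction for gene length with a span of 0.3, and libraries left out. Duplicated libraries were looked for within each treatment only. There chi-square per degree of freedom between replicates was at least 2.38, so none was counted as a duplicate, and pairs across treatments were not checked. The members and the pathway lists were chosen with earlier results of these data known. Named genes are the members, the 2 largest changes with TXX-1-10 in each list, WEE1, PKMYT1, FOXM1, MYBL2, UBE2C, FBXO5, ESPL1 and FZR1, near-identical copies, and the 5 genes most like the members. Figures were made with Python 3.11.15 and matplotlib 3.10.9.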

Additional observations from a re-analysis of the deposited data

How the results depend on the processing

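The number of members called among the 9 genes listed in all libraries was 8 with TXX-1-10 and 2 with rimonabant under every alternative run. Between the compounds it was 6, but 3 with DESeq2, 3 with TMM and 2 with the gene length correction, and 5 to 7 when single libraries were left out. The median of all genes in this comparison was -0.08, and it was 0.01 with TMM, 0.01 with DESeq2 and -0.0055 with the gene length correction. CCNB2, PLK1, CDC20, CCNB1 and AURKA lie close to the fold threshold. The cause of the lower numbers of calls was not tested. Whether same-numbered libraries were handled together is not given in the labels. Correlations of their deviations (from -0.79 to 0.83) cannot decide it. The largest of either sign were between rimonabant and TXX-1-10, which each hold a library with a length trend. With the replicate block the numbers called were 8, 2 and 6. CCNA1, the 1 pathway gene called with rimonabant, was not called with the gene length correction (0 genes), with the replicate block (0), or when single libraries were left out (0 to 1), for causes that were not tested. Of the pathway genes fitted on 7 libraries, 0 were called between the compounds, and 1 was called without the libraries with a length trend (0 to 1 when single libraries were left out). For TXX-1-10 against vehicle the log2 ratio of PLK1 over CCNA2 differed by -0.01, and by -0.078 to 0.035 when single libraries were left out. It was positive without vehicle replicate 3 (0.030), TXX-1-10 replicate 2 (0.035) and TXX-1-10 replicate 3 (0.0031). That of CDC20 over CCNA2 differed by -0.05 (-0.11 to 0.049) and was positive without TXX-1-10 replicate 2, all between groups that overlap. CDC25B, TXX-1-10 against rimonabant, was the only comparison of a member whose adjusted p moved across 0.05, with values from 0.0333 to 0.00494 under 6 alternatives against 0.249. The length correction and the removal of libraries with a length trend were chosen after seeing the data for genes fitted on 8 or 7 libraries. ANAPC10 was not tested because its mean FPKM lay below 1, and LIN37 and CCNB3 because 6 and 5 libraries list them.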
